A study of Mus musculus with 14 samples.

Results

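The primed epiblast and Nodal pathway genes described here are Fgf5, Otx2, Fgf8, Gsc, Nodal, Lefty1, Lefty2 and Trh, chosen by their gene symbols in the annotation of the array's probes. They are 8 of the 16593 genes named for the 23978 probes with a gene, among 25697 probes on each mouse Illumina bead array. Each of the 8 had exactly 1 probe, and all 8 probes were detected on at least 2 arrays, so that all were tested. The 14 arrays, in 8 groups, measured RNA of pluripotent cell lines and of primordial germ cells (PGCs), from which eggs and sperm later form. The hypoxia-induced germ-cell-derived lines hiEGL2 and hiEGL1, labelled as cultured in hypoxia, gave 2 arrays each, and embryonic germ (EG) cells, pluripotent cells derived from PGCs and not labelled as cultured in hypoxia, gave 2. PGCs taken 11.5 days post coitum (PGC11.5) gave 2 arrays and are called unipotent in the labels. Epiblast stem cells (EpiSC) gave 1 array for each of the lines EpiT9 and EpiE3, and embryonic stem cells (ESC) gave 2 arrays for the female group ESCf and 2 for the male group ESCm. All samples are labelled with a C57BL background, no transgene is named for any group, and a characteristic of the ESC samples reads embryonic germ cells although their titles and the series design name ESC, which were followed. The labels place no replicates in separate cultures. A p-value or standard error here therefore reflects the spread between replicate arrays alone, which may be technical. Each line had its own mean in the fit, so differences between lines of ESC, hiEGL or EpiSC do not enter it. EpiT9 and EpiE3, with 1 array each, add nothing to that spread, which for EpiSC is borrowed from the other groups.

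In the early mouse embryo, the secreted protein Nodal binds activin receptors together with the co-receptor encoded by Tdgf1, and the signal is carried to the nucleus by Smad2 and Smad3, which act with Smad4 and the DNA-binding partner Foxh1. Lefty1 and Lefty2 are secreted inhibitors of this signal that are themselves switched on by it, and Gsc is a homeobox gene of the organizer region that responds to strong signalling. Naive ESC correspond to the epiblast before implantation, whereas EpiSC correspond to the primed epiblast after implantation and are maintained with activin and FGF, with Fgf5 and Otx2 among their best-known markers. Germ cells descend from the epiblast, and EG cells are obtained when PGCs regain pluripotency in culture.

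The windows at the start sites of 3 members that were higher in EpiSC than in ESC are shown, picked because each window holds the TATA-box letters TATAAA. These genes did not move together in every comparison: in EG against ESC, Fgf5 and Gsc were called higher and Otx2 was not called. The windows run from 250 bases before to 50 bases after the gene's start in RefSeq sequence of build GRCm38.p6, written in the direction of transcription, and capitals mark the letters of the motifs searched. The Fgf5 window lies at chr5:98253934-98254233 on the plus strand, that of the most upstream of 4 Otx2 starts at chr14:48667595-48667894 on the minus strand, and that of Gsc at chr12:104473187-104473486 on the minus strand.
Fgf5: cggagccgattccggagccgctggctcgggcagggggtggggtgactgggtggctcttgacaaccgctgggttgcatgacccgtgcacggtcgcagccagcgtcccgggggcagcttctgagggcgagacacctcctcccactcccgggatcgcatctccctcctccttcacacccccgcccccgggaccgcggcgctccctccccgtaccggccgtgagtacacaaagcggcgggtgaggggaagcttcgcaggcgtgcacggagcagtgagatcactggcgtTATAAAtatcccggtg
Otx2: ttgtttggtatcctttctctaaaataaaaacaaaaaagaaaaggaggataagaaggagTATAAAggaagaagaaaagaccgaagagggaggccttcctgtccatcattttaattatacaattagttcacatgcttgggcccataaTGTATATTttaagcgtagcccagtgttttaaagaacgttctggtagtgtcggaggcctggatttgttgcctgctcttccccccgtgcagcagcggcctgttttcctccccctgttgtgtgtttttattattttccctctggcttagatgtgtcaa
Gsc: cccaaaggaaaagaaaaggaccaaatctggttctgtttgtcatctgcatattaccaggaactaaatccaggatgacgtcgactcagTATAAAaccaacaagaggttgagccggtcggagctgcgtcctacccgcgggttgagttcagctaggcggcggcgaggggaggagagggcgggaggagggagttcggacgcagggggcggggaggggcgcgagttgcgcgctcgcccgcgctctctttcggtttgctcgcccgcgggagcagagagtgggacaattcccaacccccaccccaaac

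With the gene's first base counted as 0, TATAAA began at position 34 in the Fgf5 window, at -192 in the Otx2 window and at -164 in the Gsc window. The Otx2 window also held TGTATATT at -105, a match to the FOXH1-type letters TGTNNATT. Both strands were searched for TATAAA, the bicoid-type OTX letters TAATCC, TGTNNATT and the SMAD letters CAGAC. Of 32851 windows of 300 bases, 13.6% held TATAAA, 7.06% TAATCC, 12.2% TGTNNATT and 49.6% CAGAC. The next Otx2 start overlaps this window and held the same TGTATATT letters at -241. Among the other windows of members, TAATCC was found at another Otx2 start, at -211 on the opposite strand, and CAGAC in that of Trh, at 30, and the Nodal window held none of the 4. GC content was 68.3% in the Fgf5 window, 60.3% in that of Gsc and 41.7% in the Otx2 window shown. Windows were at hand for 5 of the 8 members, and those of Fgf8, Lefty1 and Lefty2 were not analysed here.

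The arrays stood apart in ways that bear on the comparisons. Between 29.8% and 45.4% of all probes were detected per array, and the lowest detected value lay at 5.75 to 6.07 on the normalized log2 scale on the EG and hiEGL arrays, at 5.63 and 6.08 on the PGC11.5 arrays and at 4.86 to 5.26 on the EpiSC and ESC arrays. On the 6 EG and hiEGL arrays, 854 probes were detected on none although they were detected on all 8 other arrays, and 49 showed the reverse. Among genes with at least 2 tested probes, the 2 brightest probes gave opposite calls in 25.2% of called pairs for EG against ESC and 28% for EG against EpiSC, but in 2.97% for hiEGL against EG, 14.4% for EpiSC against ESC and 8.12% for PGC11.5 against EpiSC. A member has no second probe with which its direction could be checked. Replicate arrays correlated over the tested probes at r = 0.993 to 0.997, except PGC11.5 at 0.950 with 1681 probes at least 2-fold apart. Markers of blood, endothelium and macrophages summed to a linear intensity of 23692 in PGC11.5 replicate 1 and 1142 in replicate 2. Of this list only Pecam1 and the globin gene Hba-a1 were detected there. Hba-a1 exceeded EpiSC by a log2 difference of 9.57 without replicate 2 and 4.88 without replicate 1. With at most 2 arrays in a group, the number of arrays limits the precision of every value, and fewer cells of a type cannot be told apart from less RNA per cell in such bulk samples.

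Across the comparisons, every member but Lefty2 was highest in EpiSC. The hiEGL lines detected only Lefty1, which was lowest there. Absence of detection was not particular to hiEGL. Fgf5 was also undetected in ESC and PGC11.5, Fgf8 in ESC, EG and PGC11.5, Gsc in PGC11.5, and Otx2 and Nodal in EG. Undetected values give no order between such groups. A probe was called when its p-value in limma, adjusted over all 12404 tested probes, was under 0.05. Of the 8 members, 7 rose and 1 fell in EpiSC relative to ESC, where 62.3% of all tested probes were called, 34% as higher and 28.4% as lower. In PGC11.5 relative to EpiSC, 1 rose and 7 fell (57.4% of all probes called, 26.4% higher and 31% lower). In EG, 8 fell relative to EpiSC (72.8% called, 37.4% higher and 35.4% lower), and relative to ESC 2 rose and 5 fell (72.4% called, 37.7% higher and 34.6% lower). In hiEGL relative to EG, 6 fell and none rose (55.6% called, 24.9% higher and 30.7% lower), the call of Otx2 among them with no detected array on either side. In ESCf relative to ESCm 3 were called higher and 1 lower (17.4% of all probes called, 8.7% higher and 8.66% lower). In hiEGL2 relative to hiEGL1 2 were called higher and 1 lower (25.5% called, 12% higher and 13.5% lower).

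The members' median log2 difference was 2.80 in EpiSC against ESC, where the median of all probes was 0.06, and -2.24 in hiEGL against EG, where it was -0.04. It was -3.94 in PGC11.5 against EpiSC, with a median of -0.05 for all probes, and -1.06 in EG against ESC, with 0.03. Fgf8 was detected only on the EpiSC arrays and passed the filter through them, so its difference from other groups follows in part from the filter. Comparisons that share the ESC, EpiSC or EG arrays are not independent of each other. Levels are normalized log2 intensities throughout and are compared between groups for the same probe only. Where a probe was detected on no array of a side, the fold is a lower bound against the lowest detected signal of those arrays, written as at least, and where neither side detected it no fold is given. The plot of the members by array shows these levels.

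**Figure D1:**
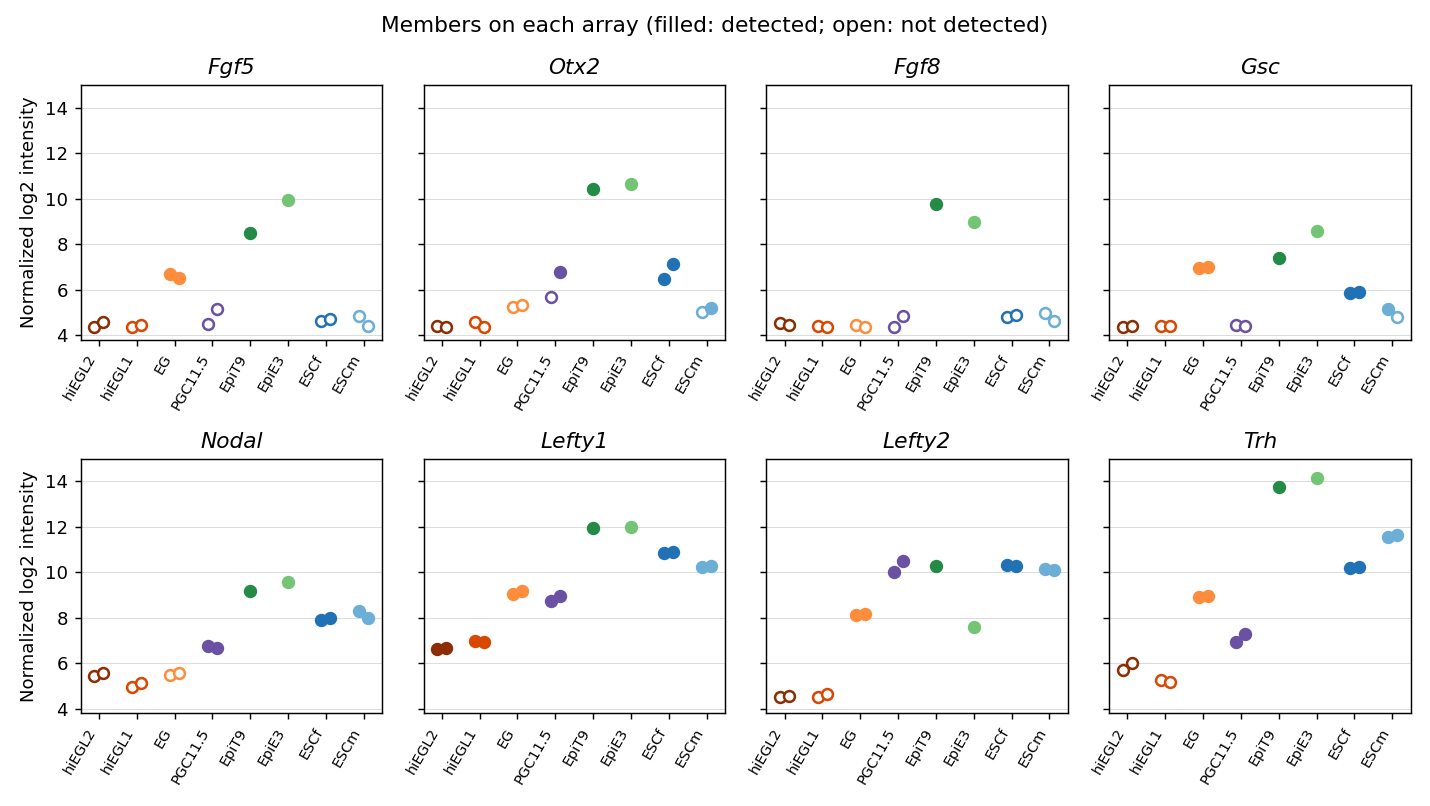
Normalized log2 intensity (vertical axis) of each member on every array, with the 8 groups along the horizontal axis; filled circles are detected values (detection p under 0.01) and open circles are not. The EpiT9 and EpiE3 values stand above those of all other groups for Fgf5, Otx2, Fgf8, Gsc, Nodal, Lefty1 and Trh, and the hiEGL arrays detected only Lefty1.

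Fgf5, the FGF ligand used as a marker of primed epiblast, was detected in EpiSC and EG alone. It had 4.34 and 4.58 in hiEGL2, 4.34 and 4.45 in hiEGL1, and 6.68 and 6.53 in EG. The values were 4.47 and 5.16 in PGC11.5, 8.47 in EpiT9, 9.96 in EpiE3, 4.61 and 4.70 in ESCf and 4.82 and 4.42 in ESCm. Both EpiSC lines lay above both EG arrays, and these above all others, none of which detected the probe. Fgf5 rose in EpiSC relative to ESC by 4.58 ± 0.20 on the log2 scale (SE), at least 16.8-fold (limma, adjusted p = 4.06e-08). It also rose in EG relative to ESC, by 1.97 ± 0.20, at least 2.75-fold (adjusted p = 8.62e-06), and stood 6.12-fold lower in EG than in EpiSC (adjusted p = 3.04e-06). In hiEGL it fell by 2.17 ± 0.20 relative to EG, at least 1.58-fold (adjusted p = 6.08e-06), and the fall was 1.08 when arrays were scaled to a common median in place of quantiles. PGC11.5 was at least 10.3-fold lower than EpiSC (adjusted p = 2.00e-07). Between the EpiSC lines, with 1 array each and no test, EpiT9 was 2.80-fold lower than EpiE3, and the rise over ESC was 5.32 without EpiT9 and 3.84 without EpiE3.

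Fgf8, an FGF ligand made in the primitive streak and later in the midbrain-hindbrain boundary, was detected only in the EpiSC lines. It had 4.51 and 4.44 in hiEGL2, 4.39 and 4.33 in hiEGL1, 4.42 and 4.37 in EG, and 4.36 and 4.85 in PGC11.5. EpiT9 had 9.77 and EpiE3 8.98, against 4.78 and 4.88 in ESCf and 4.97 and 4.62 in ESCm. The 12 arrays outside EpiSC did not detect it and their groups did not differ beyond the largest spread within a group, 0.49. Relative to ESC, EpiSC was at least 18.8-fold higher (log2 difference 4.56 ± 0.16, adjusted p = 1.10e-08), and EpiT9 was 1.73-fold above EpiE3. PGC11.5 was at least 11.5-fold lower than EpiSC (adjusted p = 2.66e-08) and EG at least 11.8-fold lower (adjusted p = 5.83e-09). Of the neural list, 6 genes that can go with Otx2 or Fgf8 outside the epiblast, 2 were tested in EpiSC relative to ESC (34.6% of all genes higher and 28.4% lower). Nes, an intermediate filament gene of neural progenitors, was 3.75-fold higher (adjusted p = 3.12e-06), but only 1 of its 2 tested probes was called higher. En2, a midbrain-hindbrain homeobox gene, was 2.27-fold lower (adjusted p = 4.40e-05), with 1 of 2 EpiSC arrays detecting it.

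Otx2, a homeobox transcription factor that moves cells out of the naive state and later patterns the head, was highest in EpiSC, lower and partly undetected in ESC and PGC11.5, and undetected in EG and hiEGL. It had 4.38 and 4.37 in hiEGL2, 4.56 and 4.34 in hiEGL1, 5.22 and 5.34 in EG, and 5.65 and 6.76 in PGC11.5, of which only the last was detected. The other values were 10.43 in EpiT9, 10.66 in EpiE3, 6.44 and 7.14 in ESCf, and 5.0 and 5.21 in ESCm, where the lower was not detected. The EpiSC lines were close to each other and above every other array by more than any group's own spread. EpiSC exceeded ESC 24.1-fold (log2 difference 4.59 ± 0.29, adjusted p = 4.28e-07), with 3 of the 4 ESC arrays detecting the probe. In PGC11.5 it was 20.2-fold lower than in EpiSC with 1 of 2 arrays detected (adjusted p = 2.37e-06), and in EG at least 26.4-fold lower than in EpiSC (adjusted p = 2.28e-07). EG and ESC differed by -0.67 (95% interval -1.31 to -0.03, adjusted p = 0.0569), and their arrays overlapped. Both undetected EG values lay above the detected ESCm value of 5.21. The lowest detected value of any probe was 5.86 and 5.78 on the EG arrays and 5.05 and 5.10 on the ESCm arrays. Absence of detection on both sides leaves no fold for hiEGL against EG, where the log2 difference was -0.87 (adjusted p = 0.0252) and became 0.08 with median scaling.

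Otx2 was also 3.22-fold higher in ESCf than in ESCm (log2 difference 1.69 ± 0.33, adjusted p = 0.00696), with 1 of 2 ESCm arrays detecting it. This call was lost without ESCm replicate 1 (1.59, adjusted p = 0.0615) and without ESCf replicate 2 (1.34, adjusted p = 0.0657).

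Gsc, the organizer homeobox gene that responds to strong Nodal signalling, was highest in EpiSC, next in EG, then ESCf and ESCm, and undetected in PGC11.5 and hiEGL. Its values were 4.35 and 4.39 in hiEGL2, 4.39 and 4.40 in hiEGL1, 6.94 and 7.0 in EG, and 4.45 and 4.41 in PGC11.5. EpiT9 had 7.39 and EpiE3 8.57, against 5.83 and 5.88 in ESCf and 5.14 and 4.78 in ESCm, the last of them undetected. The groups with detected arrays did not overlap one another. Gsc rose 5.93-fold in EpiSC relative to ESC (log2 difference 2.57 ± 0.13, adjusted p = 1.33e-07), by 3.16 without EpiT9 and 1.98 without EpiE3. EG exceeded ESC 2.96-fold (1.56 ± 0.13, adjusted p = 2.28e-06), the same direction as Fgf5 and opposite to the other members called there. Against EpiSC, EG was 2.01-fold lower (adjusted p = 1.90e-04), a call lost without EpiE3 (-0.42, adjusted p = 0.0688) and when cell line was fitted as a random block (adjusted p = 0.0602). In hiEGL it fell by 2.59 ± 0.13 relative to EG, at least 2.05-fold (adjusted p = 1.02e-07), and fell by 1.51 with median scaling. PGC11.5 was at least 4.36-fold lower than EpiSC (adjusted p = 5.65e-08), and ESCf 1.86-fold higher than ESCm (adjusted p = 0.00369).

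Nodal, the ligand of the pathway, was highest in EpiSC, then ESC, then PGC11.5, and was not detected on any EG or hiEGL array. It had 5.45 and 5.56 in hiEGL2, 4.97 and 5.13 in hiEGL1, 5.51 and 5.59 in EG, and 6.76 and 6.65 in PGC11.5. EpiT9 had 9.18 and EpiE3 9.56, against 7.91 and 8.01 in ESCf and 8.29 and 7.98 in ESCm. EpiSC, ESC and PGC11.5 did not overlap one another. Nodal rose 2.50-fold in EpiSC relative to ESC (log2 difference 1.32 ± 0.13, adjusted p = 9.15e-06) and was 6.35-fold lower in PGC11.5 than in EpiSC (adjusted p = 2.69e-07). EG lay at least 4.68-fold below ESC (adjusted p = 4.65e-08) and at least 11.7-fold below EpiSC (adjusted p = 6.99e-09), whereas Gsc was higher in EG than in ESC. The difference between hiEGL and EG, -0.27 (95% interval -0.55 to 0.02, adjusted p = 0.103), compares values below detection, and it was 0.32 with median scaling. ESCf and ESCm differed by -0.17 (95% interval -0.50 to 0.16, adjusted p = 0.499).

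Lefty1, a secreted inhibitor of Nodal, was the only member detected on all 14 arrays and gave the fullest order of groups. It had 6.65 and 6.69 in hiEGL2, 6.96 and 6.94 in hiEGL1, 9.07 and 9.17 in EG, and 8.76 and 8.96 in PGC11.5. EpiT9 had 11.95 and EpiE3 12.01, against 10.85 and 10.88 in ESCf and 10.24 and 10.29 in ESCm. Except between the EpiSC lines, every step in the order of groups exceeded the largest spread within a group, 0.20. Lefty1 rose 2.67-fold in EpiSC relative to ESC (log2 difference 1.42 ± 0.08, adjusted p = 1.56e-07). It was 8.72-fold lower in PGC11.5 than in EpiSC (adjusted p = 2.53e-09), 2.72-fold lower in EG than in ESC (adjusted p = 5.60e-08) and 7.27-fold lower in EG than in EpiSC (adjusted p = 1.43e-09). As the member detected on both sides, it fell 4.95-fold in hiEGL relative to EG (-2.31 ± 0.08, adjusted p = 6.36e-09), with -2.16 under median scaling. ESCf exceeded ESCm 1.52-fold (adjusted p = 0.00139), and hiEGL2 was 1.21-fold below hiEGL1 (adjusted p = 0.0406), a call lost when any of the 4 arrays was left out.

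Lefty2, the other Nodal inhibitor, did not follow Lefty1: it lay in the same range in PGC11.5, EpiT9 and ESC, and EpiE3 stood below all of these. It had 4.51 and 4.55 in hiEGL2, 4.51 and 4.65 in hiEGL1, 8.11 and 8.18 in EG, and 10.00 and 10.50 in PGC11.5. EpiT9 had 10.29 and EpiE3 7.61, against 10.32 and 10.30 in ESCf and 10.13 and 10.10 in ESCm. PGC11.5, EpiT9, ESCf and ESCm did not differ beyond the largest spread within a group, 0.50, whereas EG and EpiE3 lay lower and the hiEGL arrays did not detect the probe. EpiT9 was 6.42-fold above EpiE3, a difference larger than that of 99.6% of all tested probes between these arrays and the largest among the members. The calls that involve EpiSC changed with the line left out. The log2 difference of EpiSC from ESC was -1.26 (adjusted p = 1.28e-05) but 0.08 without EpiE3 (adjusted p = 0.700), and that of PGC11.5 from EpiSC was 1.30 (adjusted p = 3.69e-05) but -0.04 without it (adjusted p = 0.862).

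EG was 4.18-fold below ESC in Lefty2 (-2.06 ± 0.13, adjusted p = 1.81e-07). Against EpiSC, EG gave -0.80 (adjusted p = 6.11e-04), which became 0.54 without EpiT9 (adjusted p = 0.0244). When cell line was fitted as a random block, the 3 differences of Lefty2 that involve EpiSC were not called (adjusted p = 0.0726 to 0.304). In hiEGL, Lefty2 fell by 3.59 ± 0.13 relative to EG, the largest fitted fall among the members there, at least 4.61-fold (adjusted p = 8.88e-09), with -2.67 under median scaling. ESCf and ESCm differed by 0.20 (95% interval -0.13 to 0.52, adjusted p = 0.436).

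Trh, which encodes the precursor of thyrotropin-releasing hormone, showed the widest range of the members. Its values were 5.72 and 6.0 in hiEGL2, 5.25 and 5.16 in hiEGL1, 8.90 and 8.97 in EG, and 6.95 and 7.29 in PGC11.5. EpiT9 had 13.75 and EpiE3 14.14, against 10.21 and 10.24 in ESCf and 11.57 and 11.66 in ESCm. No groups overlapped, and the hiEGL arrays did not detect the probe. Trh rose 8.13-fold in EpiSC relative to ESC (3.02 ± 0.11, adjusted p = 1.31e-08). It was 113-fold lower in PGC11.5 than in EpiSC (-6.82 ± 0.13, adjusted p = 1.56e-10), 32.2-fold lower in EG than in EpiSC (adjusted p = 4.37e-10) and 3.96-fold lower in EG than in ESC (adjusted p = 8.25e-08). In hiEGL it was at least 7.97-fold lower than in EG (-3.40 ± 0.11, adjusted p = 5.79e-09). Unlike Otx2, Gsc and Lefty1, Trh was lower in ESCf than in ESCm, 2.62-fold (adjusted p = 9.29e-05). The calls of hiEGL2 over hiEGL1 for Trh (0.65, adjusted p = 0.00417) and Nodal (0.46, adjusted p = 0.0441) compare undetected values, and that of Nodal was lost when any of the 4 arrays was left out.

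**Figure D2:**
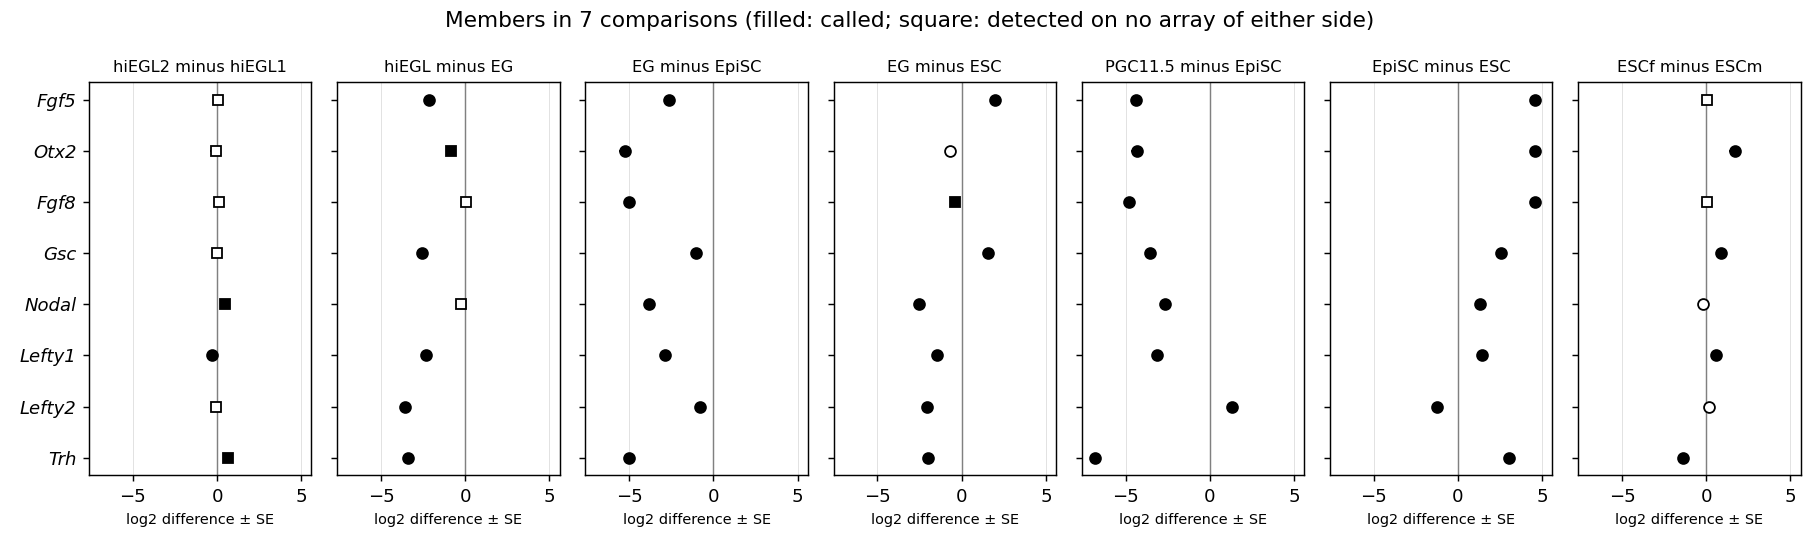
Log2 difference with its standard error (horizontal axis) of each member in the 7 comparisons; filled symbols were called, open symbols were not, and squares mark probes detected on no array of either side. In EpiSC minus ESC every member but Lefty2 lies above 0, and in hiEGL minus EG the 5 members with a bound or a fold lie between -3.59 and -2.17.

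EG differed from ESC by higher Fgf5 and Gsc beside lower Nodal, Lefty1, Lefty2 and Trh. These 6 calls kept their direction and stayed under the threshold in all 15 alternatives tried, whereas the lower call of Fgf8 compares values undetected on both sides. This comparison crosses the difference in detected probes between the EG and hiEGL arrays and the others, and its part in the result was not tested. Quantile normalization also mattered for how probes moved as a whole: with median scaling, 64.6% of called probes were higher in hiEGL than in EG, against 44.8% with quantiles, and the median of all probes was 0.46. For PGC11.5 against EpiSC the share was 77.1% against 46% and the median 0.70, for hiEGL2 against hiEGL1 68.4% against 47% and 0.40, and for ESCf against ESCm 60.5% against 50.1% and 0.04. In PGC11.5, the falls relative to EpiSC of Fgf5, Fgf8 and Gsc were -2.86, -3.03 and -1.78 under median scaling, against -4.40, -4.78 and -3.55 with quantiles. All 8 members stayed called in PGC11.5 against EpiSC without either PGC11.5 array.

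The cells' identity was checked against marker lists, given as summed intensity on the linear scale after the offset of 16 was taken off. Of the naive pluripotency list, 9 of 10 genes had a probe, and all 9 fell in EpiSC relative to ESC (28.4% of all genes lower), with a median log2 difference of -3.77. Its sum was 661 in EpiT9 and 422 in EpiE3, against 11725 to 13597 on the ESC arrays, while Tcl1 and Tbx3 were undetected in both EpiSC lines. The sum was 4945 to 5373 in hiEGL and 5887 and 6331 in PGC11.5, and 18940 and 19528 in EG. The sum in EG was mostly Esrrb, a naive pluripotency factor, which was higher in EG than in ESC (log2 difference 1.80): without Esrrb the sum was 5729 and 5730 in EG, against 7687 to 9674 in ESC. In EG relative to ESC, 2 of the 9 rose, Esrrb and Klf4, and 4 fell, Fgf4, Klf2, Klf5 and Zfp42 (43.7% of all genes higher and 29% lower), with a median log2 difference of -0.09. Klf4 rose by its brightest probe, but 2 of its 3 tested probes were lower. Its log2 difference was 0.59 under median scaling and was not called (limma, adjusted p = 0.0537). All 9 were called lower in hiEGL relative to EG (33% of all genes lower), but Nr0b1 and Fgf4 were detected on no array of either side and the count was 5 to 9 over the 15 alternatives, with Fgf4 at 0.41 under median scaling. Of the core pluripotency list, 5 of 5 fell in hiEGL relative to EG by their brightest probes (4 to 5 over the 15 alternatives). Only 1 of 2 tested probes was called lower there for Sox2 and for Lin28a, and 1 of 3 for Sall4. In EpiSC relative to ESC, 4 of 5 fell (2 to 5 over 14 alternatives). Pou5f1 was not called in EpiSC by its brightest probe, but 1 of its 2 tested probes was called higher. In EG relative to ESC, 1 of the 5 rose, Sall4, and 4 fell, with a median log2 difference of -2.10. Sall4 rose by its brightest probe, but 2 of its 3 tested probes were lower. Pou5f1, which encodes the core factor Oct4, had a log2 level of 7.87 in EG, against 12.58 in ESCf and 12.36 in ESCm. The difference of -4.60 was called in all 15 alternatives. None of these removes the difference in detected probes between the EG and hiEGL arrays and the others, whose part in it was not tested. PGC markers summed to 11641 and 14856 in PGC11.5, against 122 to 1231 in all other groups. Of this list Mael, Tdrd1, Sycp3 and Stra8 were undetected on both PGC11.5 arrays, while Stra8 was detected in EG and ESC.

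Markers of other cells moved with the comparison of hiEGL and EG. Gonadal somatic markers summed to 3136 to 3663 in hiEGL and at most 91.4 in EG, and all 3 tested, Wt1, Sox9 and Pdgfra, rose (28.1% of all genes higher), although Gata4, Nr5a1, Amh, Lhx9 and Star were undetected on every hiEGL array. Fibroblast markers summed to 10940 to 16163 in hiEGL and 5163 and 5511 in EG, with 6 of 8 tested higher and Postn undetected throughout. Markers of primitive or visceral endoderm summed to 932 to 1553 in hiEGL and 215 and 236 in EG, with 4 of 7 tested higher and Gata4, Ttr, Apoa1 and Foxa2 undetected. Markers of blood, endothelium and macrophages summed to 898 to 1171 in hiEGL and 183 in both EG arrays, with 4 of 5 tested higher and Ptprc undetected. The part of such cells in the lower level of the members was not tested. In EpiSC relative to ESC, 4 of 7 endoderm genes were called higher (34.6% of all genes higher), with sums of 324 and 291 in EpiSC and 147 to 157 in ESC. Foxa2 and Sox17 were called in all 14 alternatives, Gata6 in 6 and Dab2 in 4, and the list's count was 2 to 4.

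**Figure D3:**
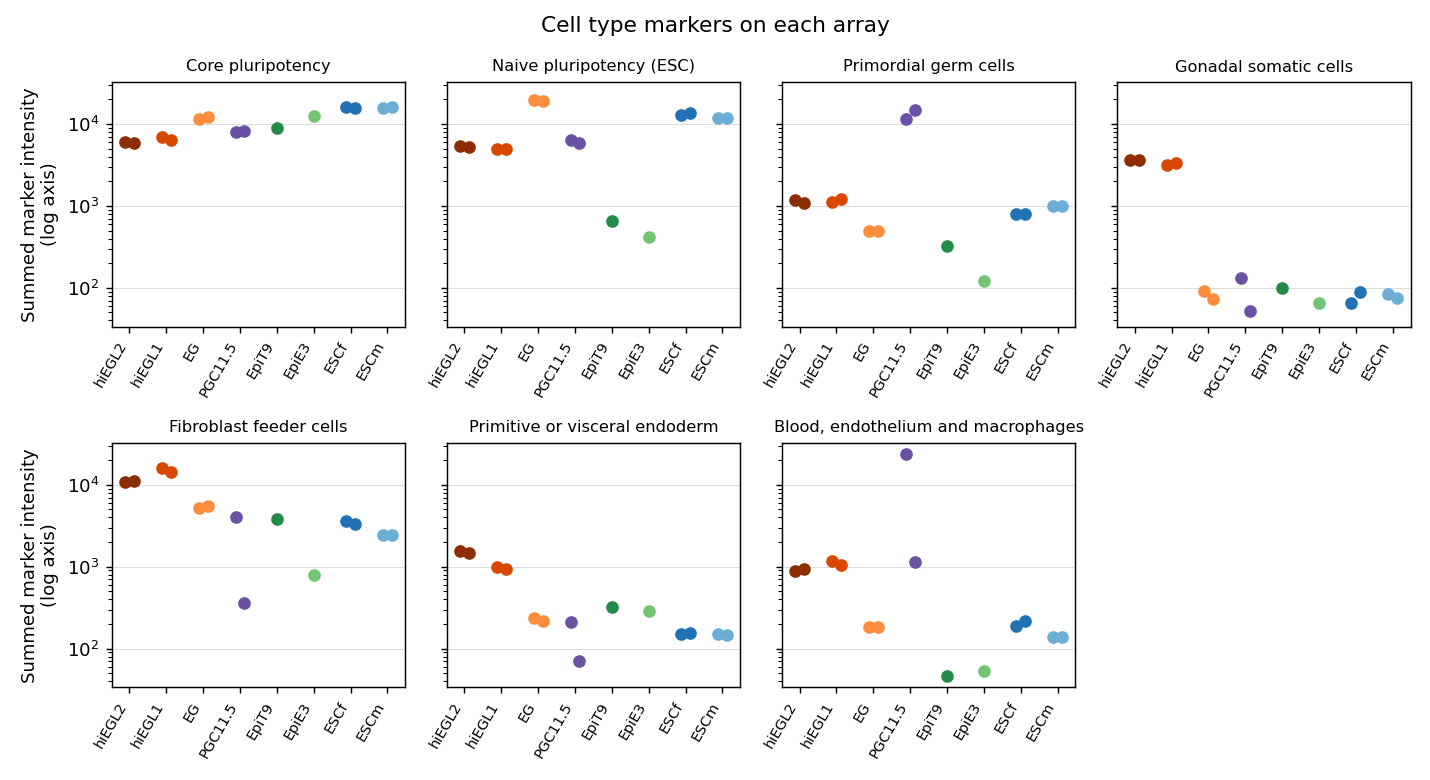
Summed intensity of each marker list (vertical axis, log scale) on every array by group. The naive pluripotency sum is lowest in EpiT9 and EpiE3, at 661 and 422, the gonadal somatic sum is at 3136 to 3663 in the hiEGL arrays and at most 133 elsewhere, and the PGC11.5 arrays differ in the blood and fibroblast lists.

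Other genes of the pathway were then described from lists, each gene by its brightest tested probe, over 9081 genes. Among the other ligands, co-receptors and receptors of Nodal signalling, 6 of 12 were tested, and in EpiSC relative to ESC 2 rose and 4 fell (34.6% of all genes higher and 28.4% lower), with a median log2 difference of -1.63 against 0.07 for all genes. Tdgf1, the Nodal co-receptor, fell 5.96-fold (-2.57, adjusted p = 5.63e-08), with a log2 difference of -1.91 without EpiT9 and -3.24 without EpiE3. In the same comparison Gdf3, a related ligand, fell 3.32-fold (adjusted p = 2.54e-07), and Inhbb, which encodes an activin subunit, at least 6.03-fold (adjusted p = 7.92e-06). Acvr2b, a receptor for activin and Nodal, rose 3.58-fold (adjusted p = 1.97e-07). Nodal and its co-receptor gene thus moved in opposite directions. In hiEGL relative to EG, 2 rose and 4 fell (28.1% of all genes higher and 33% lower). Tdgf1 was 10.9-fold lower (adjusted p = 7.81e-09), Gdf3 3.40-fold lower (adjusted p = 1.80e-07) and Inhbb at least 1.69-fold lower (adjusted p = 3.02e-04), while Furin, a protease that can cleave the Nodal precursor, was 3.83-fold higher (adjusted p = 8.65e-08). EG lay 4.97-fold below ESC in Acvr2b (adjusted p = 1.56e-08).

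Of the transducers and inhibitors, 11 of 14 were tested, with 6 higher and 3 lower in EpiSC than in ESC (34.6% of all genes higher and 28.4% lower) and a median of 0.50. Fst, which encodes the activin-binding protein follistatin, was 11.7-fold higher (adjusted p = 3.49e-07), with 1 of 4 ESC arrays detecting it. Its log2 difference of 3.54 was 2.21 without EpiT9 and 4.88 without EpiE3. Foxh1, the DNA-binding partner of the Smads, was 4.50-fold higher (adjusted p = 7.21e-06). Cer1, a secreted Nodal inhibitor, was at least 2.00-fold higher (adjusted p = 4.46e-07), but it was detected only on the 2 EpiSC arrays and so was tested only through the side where it is high. Tgif1, a co-repressor of Smad signalling, was 3.02-fold lower by its brightest probe (adjusted p = 1.78e-05), but 2 of its 3 tested probes were higher. In hiEGL relative to EG 4 rose and 2 fell (28.1% of all genes higher and 33% lower), with a median of 0.19. Tgif1 fell 5.75-fold by its brightest probe (adjusted p = 5.72e-07), the only 1 of its 3 tested probes called there. Smad3 rose 2.25-fold (adjusted p = 4.33e-05) and Tgif2 rose at least 1.21-fold (adjusted p = 1.08e-04). Fst was called higher there with no detected array on either side. Foxh1 was not detected on any EG or hiEGL array.

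Of the Nodal targets and mesendoderm genes, 7 of 10 were tested, 2 of which, Cer1 and Skil, are also counted above. In EpiSC relative to ESC 5 were called higher and 1 lower (34.6% of all genes higher and 28.4% lower), with a median of 1.5. The lower call was that of Skil, whose log2 difference of -0.39 was 0.04 without EpiT9. Of the 5, Cer1, Foxa2 and Mixl1 by their tested probes were detected only on the 2 EpiSC arrays and passed the filter through them, so their count supports no direction. Another, brighter probe of Mixl1 was detected on EpiT9 alone and was not tested. Foxa2, an endoderm and node factor, was at least 2.65-fold higher (adjusted p = 1.74e-07), Lhx1, an organizer homeobox gene, at least 2.58-fold (adjusted p = 4.49e-07), and Sox17, an endoderm factor, at least 1.83-fold (adjusted p = 3.12e-05). Eomes, which acts in mesendoderm, was not called (-0.15, adjusted p = 0.312). In hiEGL relative to EG 1 rose and 1 fell (28.1% of all genes higher and 33% lower). Sox17, detected on 1 of the 4 hiEGL arrays, had a log2 difference of 1.12 (adjusted p = 2.47e-04), and Eomes, called lower, was undetected on both sides. In PGC11.5 relative to EpiSC, Lhx1 rose 4.03-fold (adjusted p = 2.25e-06) and kept that call in all 12 alternatives. Another 5 were called lower (32.4% of all genes lower), a count that was 0 to 5 over the 12 alternatives. Under median scaling Cer1 was at 0.07, Sox17 at 0.16 and Foxa2 at -0.35 (adjusted p = 0.427), and the call of Cer1 was also lost with only the arrays compared.

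Of the other FGF ligands and receptors, 5 of 8 were tested, with 2 higher and 2 lower in EpiSC than in ESC (34.6% of all genes higher and 28.4% lower). Fgf4, the FGF ligand of naive cells, fell 9.01-fold (adjusted p = 2.27e-08) and Fgf17 9.27-fold (adjusted p = 3.31e-08), each detected on 1 of 2 EpiSC arrays, while Fgf15 rose 3.52-fold (adjusted p = 2.78e-06). Fgfr1, a receptor gene, rose at least 1.46-fold (adjusted p = 0.00225), and this call was lost without EpiT9. In hiEGL relative to EG none rose and 3 fell (28.1% of all genes higher and 33% lower). Of these, Fgf17 was at least 6.41-fold lower (adjusted p = 7.08e-09) and Fgf4 and Fgf15 were undetected on both sides. Only 1 of the 2 tested Fgf17 probes was called lower there. EG was at least 4.74-fold below ESC in Fgf4 (adjusted p = 6.54e-09).

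Of 18 other genes of primed or formative epiblast, 11 were tested. In EpiSC relative to ESC 10 rose and none fell (34.6% of all genes higher and 28.4% lower), with a median of 2.26. The number higher was 8 to 10 over the 14 alternatives. Wnt8a, a Wnt ligand, was at least 14.9-fold higher (adjusted p = 1.74e-09), with detection only on the 2 EpiSC arrays, through which alone it was tested. Zic2, a zinc finger factor, was higher 8.39-fold (adjusted p = 4.54e-08) and Sall2, another zinc finger factor, 6.55-fold (adjusted p = 2.45e-06), the last pair with 1 of 4 ESC arrays detecting each. Pou3f1, a POU-domain factor, was 7.47-fold higher (adjusted p = 1.52e-04). The calls of Cldn6 and Dnmt3b rested on EpiE3: their log2 differences of 1.59 and 0.68 were 0.22 and 0.14 without that line. For Dnmt3b, only 1 of its 2 tested probes was called higher. Ncam1 was not called and not detected in EpiSC or ESC. In PGC11.5 relative to EpiSC, 9 fell and none rose (26.7% of all genes higher and 32.4% lower), with a median of -3.64. Dnmt3b, a de novo DNA methyltransferase, was 42.6-fold lower (adjusted p = 1.18e-10), Krt8, a keratin, 24.2-fold (adjusted p = 6.16e-09), Cldn6, a tight junction gene, 17.3-fold (adjusted p = 2.23e-07), the last pair with 1 of 2 PGC11.5 arrays detecting each, and Wnt8a at least 9.08-fold (adjusted p = 2.70e-09). For Cldn6 the log2 difference of -4.12 was -5.48 without EpiT9 and -2.75 without EpiE3.

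In hiEGL relative to EG, 3 of the 11 tested genes of this list rose and 2 fell (28.1% of all genes higher and 33% lower), with a median of 0.08. Over the 15 alternatives 3 to 4 rose and 1 to 3 fell. Dnmt3b fell 7.90-fold (adjusted p = 2.82e-09) and Pou3f1 had a log2 difference of -1.14 with 2 of 4 hiEGL arrays detected (adjusted p = 0.0379), a call lost without any 1 of the 6 arrays. Krt8 rose 6.77-fold (adjusted p = 4.66e-08), Krt18, its keratin partner, at least 2.83-fold (adjusted p = 3.99e-06) and Ncam1, a cell adhesion gene, at least 4.44-fold (adjusted p = 1.71e-08). Ncam1, Krt8 and Krt18 are also expressed outside the epiblast, and their rise went with the higher sums of gonadal, fibroblast and endoderm markers given above, whose part in it was not tested. Wnt8a and Zic2 were undetected in EG and hiEGL alike.

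The EpiSC lines differed from each other in some members more than in others, with 1 array each and no test. EpiT9 was 2.80-fold lower than EpiE3 in Fgf5 and 2.26-fold lower in Gsc, and 6.42-fold higher in Lefty2 and 1.73-fold higher in Fgf8. Otx2, Nodal, Lefty1 and Trh differed by at most 1.31-fold. Over the tested probes these lines correlated at r = 0.967, with 689 probes at least 2-fold apart.

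Across the 14 arrays, which are not independent because arrays of a group share their cells, the members' levels correlated to differing degrees. Pearson's r was 0.952 for Lefty1 with Trh, 0.925 for Otx2 with Fgf8, 0.922 for Nodal with Lefty1 and 0.914 for Fgf5 with Gsc, and it was lowest for Fgf5 with Lefty2, at 0.167. For Lefty1 with Lefty2 it was 0.787. Among 12214 probes of other genes, the profile most like that of Fgf8 was that of Wnt8a (r = 0.994), followed by Mapk12 (0.991) and Foxa2 (0.987). Fgf8, Wnt8a and Foxa2 were each detected only on the 2 EpiSC arrays, so their r rests on 2 high arrays and 12 undetected values. The closest profile was that of Cpt1b for Fgf5 (0.976), Ddit4 for Otx2 (0.959), Atp2a3 for Gsc (0.958) and Sfxn1 for Nodal (0.982). It was Pithd1 for Lefty1 (0.975), Cops5 for Lefty2 (0.976) and Slc6a15 for Trh (0.976).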

How the data were processed

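Per the file headers, the deposited non-normalized table holds an unlogged intensity and a detection p-value for each of 25697 probes on the 14 arrays. The authors' deposited normalized table, in log2 units and with identical quantiles in all columns (median 3.02), was tried as an alternative. The submitters' processing notes name lumi, RMA and BeadStudio 3.2, and per the labels total RNA was amplified and labelled by 2 protocols described for every sample. The build of the probes is not given in the sources used here.

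Intensities were background-corrected with detection p-values, offset by 16, quantile normalized and logged by the neqc function (limma 3.58.1, run in R 4.3.3). Detection means a detection p under 0.01. Of 23978 probes with 1 gene, 12404 detected on at least 2 arrays were tested; 1719 probes had no gene and none had several. A limma fit of 8 group means to all 14 arrays (6 residual degrees of freedom, trend on the mean) gave moderated standard errors, and p-values were adjusted by Benjamini and Hochberg over all tested probes. Line means had equal weight in hiEGL, ESC and EpiSC. List genes were taken by their brightest tested probe.

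The named genes are the 8 members, up to 4 of the largest called changes of each list, and the 3 closest profiles by Pearson's r. Genes named beyond that number, among them Eomes, Pou3f1 in hiEGL and single marker genes, were named after their values were seen. Members and lists were chosen with earlier results of these data known. Alternatives are in the closing section. Replicate numbers did not pair samples: the deviations correlated at -0.03 to 0.02 in 15 pairs of groups. The fit was tested on simulated data. Windows were searched in Python 3.11.15 and figures drawn with matplotlib 3.10.9, pandas 2.3.3 and numpy 2.4.6.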

Additional observations from a re-analysis of the deposited data

Results flagged for a closer look

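The differences between lines of the same kind were flagged where a test of the difference itself passed the threshold in limma. Between ESCf and ESCm, 4 members were flagged: Otx2 with a log2 difference of 1.69 (adjusted p = 0.00696), Gsc with 0.89 (adjusted p = 0.00369), Lefty1 with 0.60 (adjusted p = 0.00139) and Trh with -1.39 (adjusted p = 9.29e-05). Both ESCf arrays lay on the same side of both ESCm arrays for each of them. Between hiEGL2 and hiEGL1, Trh (0.65, adjusted p = 0.00417), Nodal (0.46, adjusted p = 0.0441) and Lefty1 (-0.28, adjusted p = 0.0406) were flagged, and only Lefty1 was detected in these lines. No group has 4 or more arrays, so no array was tested as an outlier of its group.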

How the results depend on the processing

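The alternatives were no background correction, the authors' normalized values, median scaling in place of quantiles, no filter, a stricter filter, the brightest probe per gene, only the arrays compared, the replicate number as a block, the line as a random block (within-line correlation 0.59) and leaving out each array in turn. A slide block was not run because the headers give no slides. Of 736 values under an alternative, 676 kept direction and side of the threshold, 38 lost and 5 gained the call, and 17 changed sign. The cause of these changes was not tested, and a fit with fewer arrays has fewer degrees of freedom.

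Without background correction the EpiSC over ESC difference of Fgf5 was 2.35 and it was 6.22 with the authors' values, around 4.58, and that of Fgf8 was 2.40 and 5.84, around 4.56, with both still called. In hiEGL against EG, Fgf5 ranged from -4.18 to -0.72, Gsc from -4.81 to -0.92 and Lefty2 from -5.37 to -1.54, whereas Lefty1 ranged from -2.52 to -1.51, all called.

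When cell line was a random block, the probes called numbered 4740 for EpiSC against ESC (7732 without), 3636 for PGC11.5 against EpiSC (7120), 5762 for EG against ESC (8979) and 3694 for hiEGL against EG (6897). With only the arrays compared, they numbered 1551 for PGC11.5 against EpiSC, 3851 for ESCf against ESCm (2153) and 5293 for hiEGL2 against hiEGL1 (3158). Leaving out an array gave 999 to 1227 for ESCf against ESCm and 1824 to 2049 for hiEGL2 against hiEGL1. Of the 3 members called between hiEGL2 and hiEGL1, 0 were called without background correction, 1 without a filter and 1 with any single array left out. Median scaling changed the sign of Fgf8 in EG against ESC (0.087), of Otx2 (0.081) and Nodal (0.32) in hiEGL against EG, and of Otx2 (0.75), Gsc (0.77) and Lefty2 (0.73) in hiEGL2 against hiEGL1.

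Leaving out an array also changed the sign of some values. The ranges were -0.0042 to 0.051 for Fgf8 in hiEGL against EG, -0.18 to 0.039 for Otx2, -0.12 to 0.020 for Lefty2 and -0.056 to 0.19 for Fgf5 in hiEGL2 against hiEGL1, and -0.17 to 0.24 for Fgf5 and -0.14 to 0.21 for Fgf8 in ESCf against ESCm. For Lefty2 they were -2.60 to 0.082 in EpiSC against ESC, -0.044 to 2.64 in PGC11.5 against EpiSC and -2.15 to 0.54 in EG against EpiSC.

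With the replicate number as a block, 1 member was called between hiEGL2 and hiEGL1 in place of 3 (Nodal, adjusted p = 0.0725, and Lefty1, adjusted p = 0.0527, were lost), and Otx2 was called in EG against ESC (adjusted p = 0.0390). The block changed no other call of a member and gave 1976 called probes for ESCf against ESCm, 8957 for EG against ESC, 6878 for hiEGL against EG and 3031 for hiEGL2 against hiEGL1. No paired analysis was possible for the comparisons with EpiSC because the EpiSC titles carry no replicate numbers.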
